A study of Arabidopsis thaliana with 20 samples.

Results

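Pectin is the galacturonic-acid-rich polysaccharide that fills the primary wall and the middle lamella between plant cells. It reaches the wall with its homogalacturonan backbone methylesterified. Pectin methylesterases remove the methyl groups there, which lets the chains be cross-linked by calcium or opens them to cleavage, and pectate lyases cut de-esterified chains. In an elongating stem these enzymes act on walls that are loosened first and stiffened later. The genes described here are 3 pectin methylesterase genes, ATPMEPCRD (AT2G43050), AT1G05310 and AT3G05620, and the pectate lyase gene AT1G11920. They were the 4 loci named for this description, among 7871 loci with a tested probe of 1 gene. Each had a single probe, and all 4 probes were measured on all 20 arrays. They were selected on their log ratios in these 5 sections, the same values that are reported here, so differences between sections are given as a description, with no test. The dye effect, which the choice did not use, was tested.

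The samples were pieces of flowering stems of Arabidopsis thaliana plants, accession Ler, from plants moved from short to long days. Stems about 5 cm long were cut on day 12 after the move and stems about 10 cm long on day 14, and all flowers, siliques, leaves and side branches were taken off. Tall stems gave pieces at 0-3, 3-5, 5-7 and 7-9 cm from the tip, and short stems gave 0-2 and 2-4 cm. Each of 20 dual-colour arrays set 1 piece against the same reference, the 0-2 cm piece of short stems, with 4 arrays for each of 5 sections and each dye on 2 of the 4. The 5 sections therefore share their reference. It has no arrays of its own, so its spread cannot be told apart from that of the sections. The labels do not state whether replicates came from separate plants, so SDs and p-values measure the spread between arrays. A value is a log2 ratio of section over reference, on a scale whose base was taken as 2 because the labels give none. In whole stem pieces, more cells that express a gene and more transcript per cell cannot be told apart.

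Of the marker loci listed for flower identity, pollen, tracheary cells and cuticle, 0 had a tested probe of 1 gene, so removal of flowers could not be checked. The Aurora kinase gene AUR2, a marker of dividing cells, had mean log2 ratios from -0.90 ± 0.39 (SD, n = 4) in 0-3 cm to -2.04 ± 0.32 in 7-9 cm. GUT2, a xylan synthesis gene of secondary walls, lay between -0.37 ± 0.60 and 0.08 ± 0.57. Correlations between arrays of a section, across probes, ran from -0.211 to 0.551 in 0-3 cm and from 0.743 to 0.869 in 3-5 cm. The spread of log2 ratios over probes was also smallest in 0-3 cm, with an array SD of 0.41 to 0.55, against 0.77 to 0.93 from 3 cm down. Labels give different dyes for 5-7 cm replicate 4 and 7-9 cm replicates 2 and 4, and different stem lengths for 3-5 cm replicate 1. The dye of the source name and the section of the title were used.

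ATPMEPCRD, a pectin methylesterase gene, was most abundant relative to the reference in the 3-5 cm section. There the 4 arrays gave log2 ratios of 3.47, 3.56, 4.01 and 3.86. Their mean was 3.72 ± 0.25 (SD, n = 4), or 13.2 times the reference, and this was the 58th highest mean among 25720 tested probes. All 4 arrays lay above every array of every other section. In the 5-7 cm section the arrays gave 2.84, 1.5, 1.28 and 1.82 (mean 1.86 ± 0.69). In the 7-9 cm section they gave 1.87, 1.94, 1.40 and 2.00 (mean 1.80 ± 0.27). Transcript thus stayed above the reference on all 8 arrays below 5 cm, and the 5-7 and 7-9 cm arrays overlapped. Every array lay above 0 for 22.3% of all probes in 5-7 cm and 24.0% in 7-9 cm.

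Nearer the tip, ATPMEPCRD was lower. The 2-4 cm section of short stems gave 1.69, 1.29, 2.32 and 1.57 (mean 1.72 ± 0.44), the 71st highest mean of that section. The 0-3 cm section of tall stems gave -0.31, 0.42, 1.40 and 1.27 (mean 0.69 ± 0.80). Replicates 1 and 2, with the section in Cy5, were the low arrays there, and replicates 3 and 4, with the section in Cy3, the high ones. The Cy5 mean was 0.05 and the Cy3 mean 1.34, a gap larger than the section's mean. Over all 20 arrays the dye term of ATPMEPCRD was -0.45 ± 0.199 (SE; adjusted p = 0.127, limma), which missed the threshold of 0.05 that 16.2% of all probes passed. Between 0-3 and 3-5 cm of tall stems the mean was 3.03 ± 0.42 (SE of the difference) higher and the arrays did not overlap, as for 20.9% of all probes. Between 3-5 and 5-7 cm it was lower by 1.86 on the log2 scale (SE 0.37), again without overlap, which 13.0% of probes shared.

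**Figure D1:**
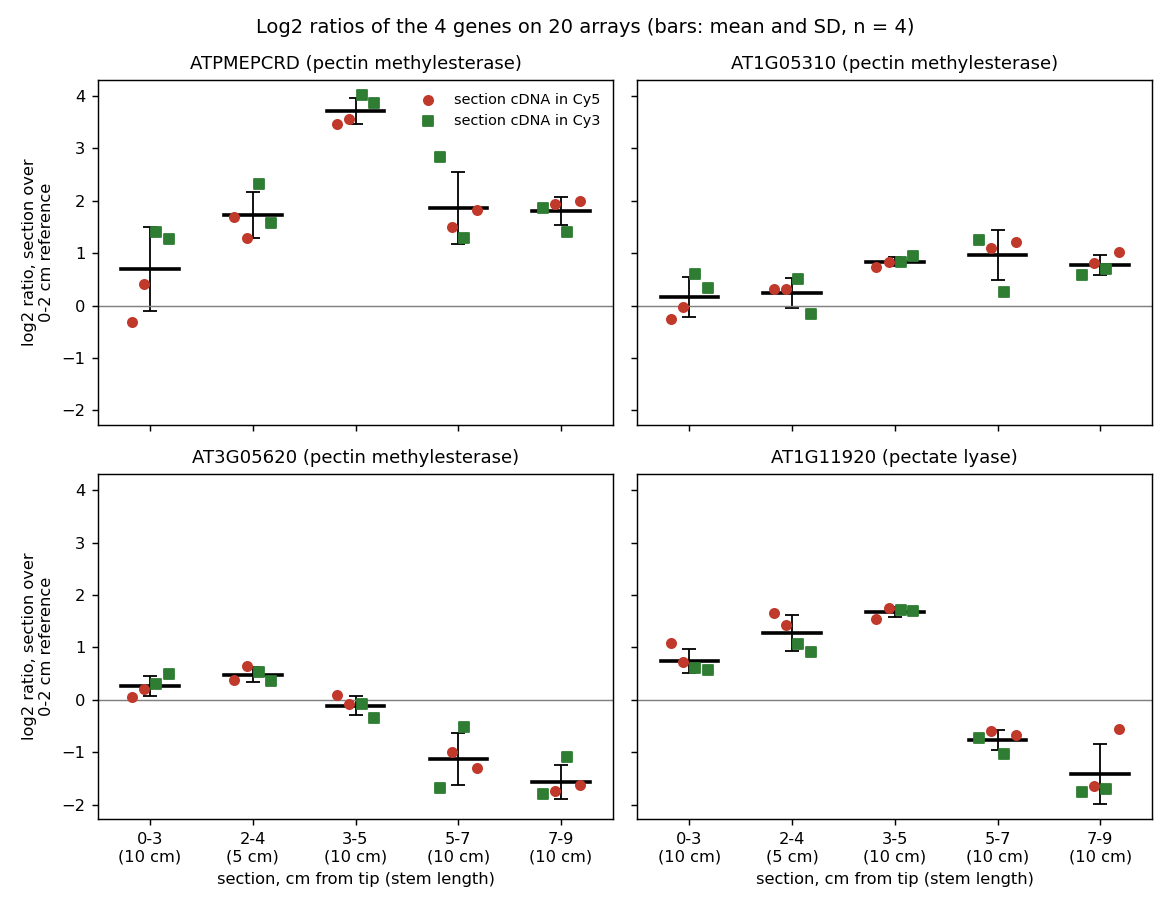
Log2 ratio of section over 0-2 cm reference (vertical axis, no unit) by section in cm from the tip (horizontal axis) for each gene. Points are single arrays, circles with the section cDNA in Cy5 and squares in Cy3, and black bars are the mean and SD of 4 arrays. ATPMEPCRD stands highest at 3-5 cm (mean 3.72), AT1G05310 is near 0.8 to 1.0 from 3 cm down, AT3G05620 drops to -1.57 at 7-9 cm, and AT1G11920 goes from 1.68 at 3-5 cm to -0.76 at 5-7 cm.

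AT1G05310, the second pectin methylesterase gene, varied least, with an SD of 0.44 over the 20 arrays against 1.11 for ATPMEPCRD. The 3-5 cm arrays gave 0.73, 0.84, 0.83 and 0.95 (mean 0.84 ± 0.09, 1.79 times the reference). The 5-7 cm arrays gave 1.26, 1.10, 0.25 and 1.21 (mean 0.96 ± 0.48), with replicate 3 well below the others. The 7-9 cm arrays gave 0.58, 0.81, 0.70 and 1.03 (mean 0.78 ± 0.19). All 12 arrays from 3 cm down were above 0, as were all arrays for 26.2% of probes in 3-5 cm. The arrays of these 3 sections overlapped, those of 5-7 cm only through replicate 3. Without that array the 5-7 cm mean was 1.19. In contrast, values straddled 0 in the upper sections. The 0-3 cm arrays gave -0.26, -0.02, 0.60 and 0.34 (mean 0.17 ± 0.38), and the 2-4 cm arrays gave 0.31, 0.31, 0.51 and -0.17 (mean 0.24 ± 0.29). The 3-5 cm arrays lay above all arrays of 0-3 cm by 0.67 ± 0.20 (SE) on average and above all of 2-4 cm by 0.60 ± 0.15, and 19.7% of probes did not overlap between 3-5 and 2-4 cm.

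AT3G05620, the third pectin methylesterase gene, ran the opposite way. In the 2-4 cm section all arrays were above the reference, at 0.38, 0.65, 0.54 and 0.35 (mean 0.48 ± 0.14), and in 0-3 cm they were at 0.06, 0.20, 0.30 and 0.50 (mean 0.26 ± 0.19). The 3-5 cm arrays were at the reference level, with 0.09, -0.08, -0.08 and -0.35 (mean -0.11 ± 0.18). Below 5 cm every array was under it, as for 22.7% of probes in 5-7 cm and 23.8% in 7-9 cm. The 5-7 cm arrays gave -1.69, -1.0, -0.51 and -1.31 (mean -1.13 ± 0.50) and the 7-9 cm arrays -1.80, -1.74, -1.10 and -1.63 (mean -1.57 ± 0.32). That last mean corresponds to 2.96 times less transcript than in the reference and was the 684th lowest of the section. No array below 5 cm reached the lowest array of 3-5 cm. The mean was lower by 1.02 (SE 0.26) in 5-7 than in 3-5 cm, whereas 5-7 and 7-9 cm overlapped.

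The pectate lyase gene AT1G11920 was above the reference in 0-3, 2-4 and 3-5 cm and below it in 5-7 and 7-9 cm. The 0-3 cm arrays gave 1.08, 0.72, 0.60 and 0.57 (mean 0.74 ± 0.23), and the 2-4 cm arrays gave 1.66, 1.43, 1.07 and 0.92 (mean 1.27 ± 0.34, the 145th highest of that section). The 3-5 cm arrays were close together at 1.55, 1.76, 1.72 and 1.69 (mean 1.68 ± 0.09, 3.20 times the reference). These 12 arrays were all above 0, which held for 8.9% of probes in 0-3 cm and 17.2% in 2-4 cm, and the ranges of neighbouring sections in this order overlapped. Below 5 cm the sign turned on every array. The 5-7 cm arrays gave -0.72, -0.60, -1.04 and -0.67 (mean -0.76 ± 0.19). The 7-9 cm arrays gave -1.75, -1.64, -1.70 and -0.56 (mean -1.41 ± 0.57, or 2.66 times under the reference), with replicate 4 apart from the rest. The mean of the other 3 arrays was -1.70.

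Between 3-5 and 5-7 cm AT1G11920 was lower by 2.43 on the log2 scale (SE 0.11), which is 5.41-fold. ATPMEPCRD was 3.64-fold and AT3G05620 2.03-fold lower over the same step, and AT1G05310 differed by 0.12 ± 0.24 (SE). Groups did not overlap for 3 of the 4 genes, against 13.0% of all probes, but the genes were chosen with this contrast in view and the share carries no weight. Both ATPMEPCRD and AT1G11920 had their highest mean at 3-5 cm. For AT1G11920 the 2-4 cm arrays overlapped those of 3-5 cm, and after centring and scaling of arrays 2-4 cm was the higher, at 1.65 against 1.51. Below 5 cm ATPMEPCRD was above the reference on every array and AT1G11920 was below it. AT3G05620 and AT1G11920 were both under the reference from 5 cm down. Between 5-7 and 7-9 cm the arrays of all 4 genes overlapped, 1.9% of probes did not, and across all probes limma called 0.00389% in this step.

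The order of the sections was as follows. For ATPMEPCRD, 3-5 cm stood apart from a group formed by 5-7, 7-9 and 2-4 cm, and the 2-4 and 0-3 cm arrays overlapped. For AT1G05310, the only neighbours in rank without overlap were 7-9 and 2-4 cm. For AT3G05620, they were 3-5 and 5-7 cm, and for AT1G11920, 0-3 and 5-7 cm. A direct comparison of stems of different length was possible near the same distance from the tip. The 3-5 cm section of tall stems exceeded the 2-4 cm section of short stems by 2.01 ± 0.25 (SE) for ATPMEPCRD without overlap, whereas for AT1G11920 the difference of 0.41 ± 0.17 came with overlapping arrays. AT3G05620 was lower by 0.59 (SE 0.11) in 3-5 than in 2-4 cm, without overlap. Distance from the tip, stem length, harvest day and scanner setting all differ between these sections and cannot be told apart.

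Scanner gain, given in the labels as photomultiplier settings, differed within the lower sections. In 5-7 cm the arrays at 62 and 60 had a mean of 2.17 for ATPMEPCRD and those at 63 and 60 a mean of 1.55. For AT1G11920 the corresponding means were -0.66 and -0.85, for AT3G05620 -1.35 and -0.91, and for AT1G05310 1.18 and 0.73. In 7-9 cm the means at 62 and 60, then at 63 and 60, were 1.91 and 1.70 for ATPMEPCRD. They were -1.70 and -1.13 for AT1G11920, -1.77 and -1.36 for AT3G05620 and 0.70 and 0.87 for AT1G05310. The sign of every gene was the same in both settings, each with 2 arrays per section. All 2-4 cm arrays shared a setting, as did all 3-5 cm arrays, so setting and section cannot be told apart in these. Laser power was 95% on 0-3 cm replicate 2 and 90% on all the others. Dye terms of the other 3 genes also missed the threshold, at 0.34 ± 0.133 for AT1G11920 (adjusted p = 0.0874, limma), -0.06 ± 0.141 for AT3G05620 and 0.02 ± 0.148 for AT1G05310.

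Genes with the most similar log2 ratios were sought among 2773 named probes measured on all 20 arrays with an SD of at least 0.5. The similarity is Pearson's r over the 20 arrays, which share their reference and fall into 5 sections, so it is a description. ATPMEPCRD was followed most closely by AT2G03200 (r = 0.911), AT2G23360 (r = 0.885) and AT5G61340 (r = 0.875). Each of these had its highest mean at 3-5 cm, with 4.54 ± 0.54 (SD) for AT2G03200, 3.60 ± 0.22 for AT2G23360 and 3.12 ± 0.59 for AT5G61340. The pectate lyase gene AT1G11920 was followed by EXPA8 (r = 0.959), an expansin that loosens walls, by XTH33 (r = 0.923), a xyloglucan endotransglucosylase, and by AT1G33490 (r = 0.920). EXPA8 went from 2.08 ± 0.14 at 3-5 cm to -1.82 ± 0.67 at 5-7 cm, and XTH33 from 2.07 ± 0.13 to 0.14 ± 0.34. AT3G05620 was followed by DRT100 (r = 0.959), AT2G38520 (r = 0.954) and AT1G11800 (r = 0.943), with means of -2.95 ± 0.24, -3.56 ± 0.48 and -2.14 ± 0.18 at 7-9 cm. AT1G05310 was left out here because its SD was under the minimum. With Spearman's correlation 1, 2 and 1 of the 3 genes remained for AT1G11920, ATPMEPCRD and AT3G05620, and with Pearson over section means 0, 1 and 0, so the ranking within such groups is loose.

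**Figure D2:**
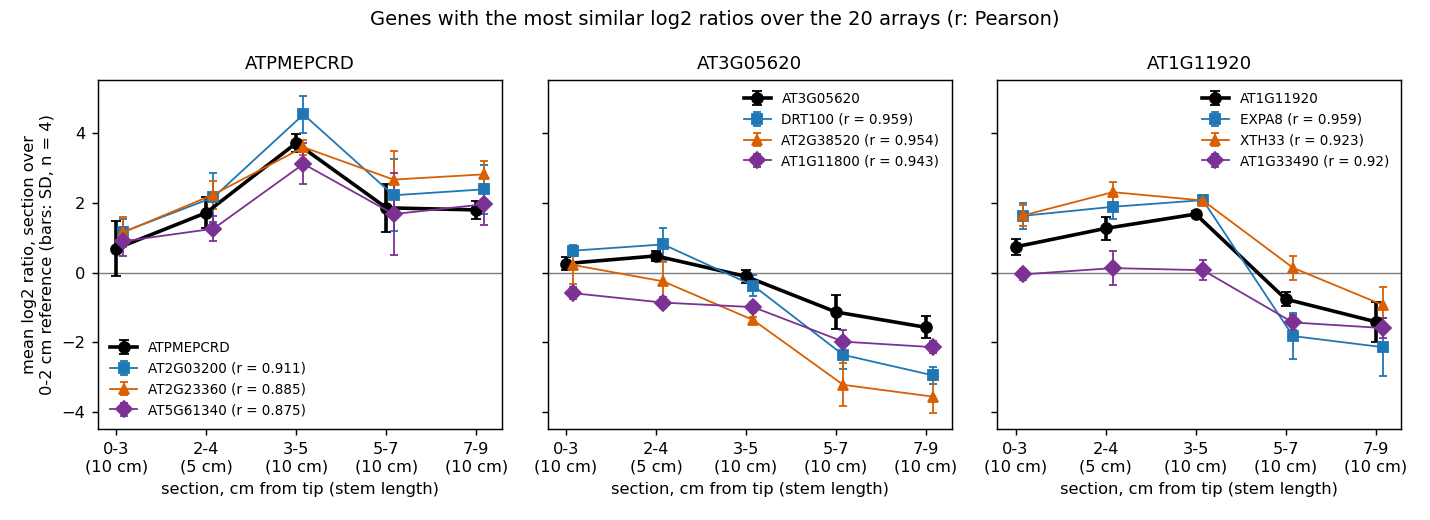
Mean log2 ratio over the 0-2 cm reference (vertical axis, no unit, bars SD of 4 arrays) by section (horizontal axis, cm from tip) for 3 genes in black and, in colour, the 3 genes most similar to each over 20 arrays. Lines only join sections of 1 gene. The neighbours of ATPMEPCRD all have their maximum at 3-5 cm, and EXPA8 and AT1G11920 both change sign between 3-5 and 5-7 cm.

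The 4 genes were selected on their ratios, so gaps between them and other genes carry no weight. Other pectin genes are described beside them. A list of such genes had 15 further loci with a tested probe, 10 pectate lyases, 3 polygalacturonases, which hydrolyse the homogalacturonan backbone, and 2 pectin methylesterases. In the 3-5 cm section limma called 5 of the 15 (33.3%), 2 higher and 3 lower, against 40.1% of all probes (19.9% higher and 20.2% lower). In 5-7 cm it called 8 (53.3%), 3 higher and 5 lower, against 40.0% (19.7% and 20.2%), and in 7-9 cm 6 (40.0%), 2 higher and 4 lower, against 43.4% (21.7% in each direction). The median log2 ratio of the list was -0.10, -0.06 and -0.16 in these sections, and that of all probes within 0.02 of 0. These shares were near those of all probes in 7-9 cm and on either side of them in 3-5 and 5-7 cm.

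Among the 10 other pectate lyases, those that passed in 5-7 cm were mostly lower, 5 against 1, where 20.2% of all probes were lower. AT1G04680 was at the reference level in the 0-3 cm section (0.11 ± 0.118, SE), fell in 3-5 cm (-0.56 ± 0.118, adjusted p = 0.000592, limma) and in 5-7 cm (-2.02 ± 0.118). At 7-9 cm its arrays read -2.32, -2.28, -2.40 and -2.08. AT1G67750 fell in 3-5 cm (-1.20 ± 0.176) and in 5-7 cm (-2.16 ± 0.176, adjusted p = 4.14e-09, limma). AT3G07010 was higher in the 2-4 cm section by 0.61 ± 0.147 and lower in 7-9 cm by 1.05 on the log2 scale (-1.05 ± 0.147, adjusted p = 5.37e-06, limma). AT4G24780 fell by 0.98 ± 0.171 in 5-7 cm. AT1G30350 was also called lower there (-0.79 ± 0.229), with 3 of 4 arrays below 0 and replicate 2 at 0.70. AT3G01270 was called higher in each section from 3 cm down, by 0.56 ± 0.116, 0.81 ± 0.116 and 0.68 ± 0.116 in order. AT4G13710 was called higher in 7-9 cm (0.55 ± 0.202, adjusted p = 0.0311, limma), a call lost in 7 of 30 alternative fits, among them those without 7-9 cm replicate 1, 2 or 3. Its 3-5 cm value of 0.45 ± 0.202 was above 0 on all 4 arrays and missed the threshold.

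Of those 10 pectate lyases only AT3G01270 was called higher in the 3-5 cm section. AT1G04680, AT1G67750 and AT4G24780 (-0.48 ± 0.171) were lower there, where AT1G11920 stood at 1.68. Of all probes 19.9% were called higher and 20.2% lower in this section. From 0-3 to 3-5 cm AT1G04680 fell by 0.67 ± 0.166 (adjusted p = 0.00804, limma) and AT1G67750 by 1.52 ± 0.249, the only 2 of 15 called in this step (13.3%, against 17.0% of probes, with 8.35% lower). AT1G11920 had a difference of 0.94 ± 0.13 in the other direction. It was selected on its ratios, so its contrast with these genes carries no weight. From 3-5 to 5-7 cm 3 of 15 were called (20.0%, against 5.9% of probes, with 3.47% lower), all pectate lyases and all lower. They were AT1G04680 (-1.46 ± 0.166), AT1G67750 (-0.95 ± 0.249) and AT3G07010 (-0.71 ± 0.208, adjusted p = 0.047, limma). The count was 1 of 15 without 3-5 cm replicate 3 or 4 and without 5-7 cm replicate 1 or 2. Those fits called 3.89%, 3.81%, 6.86% and 4.3% of all probes in order. From 5-7 to 7-9 cm limma called 0 of 15, with 2 at an unadjusted p under 0.05.

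**Figure D3:**
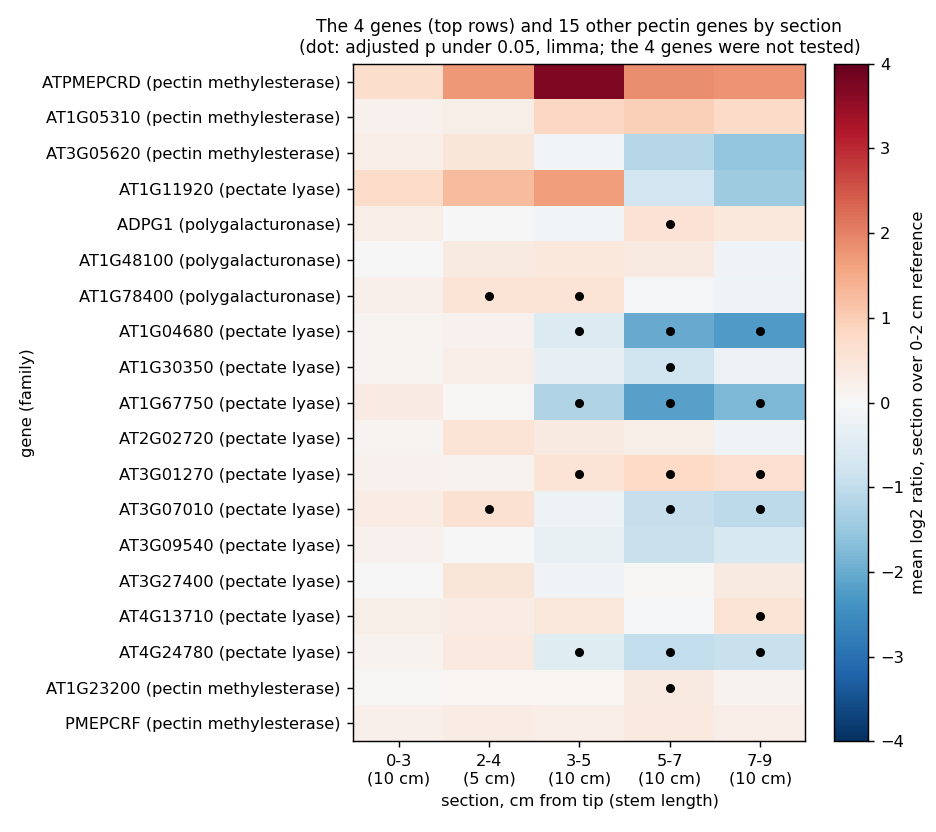
Mean log2 ratio over the 0-2 cm reference (colour, red above and blue below 0) by section (columns, cm from tip) for the 4 genes in the top rows and 15 other pectin genes below. Dots mark an adjusted p under 0.05 in limma for the 15. AT1G04680 and AT1G67750 turn blue from 3-5 cm down, a section where ATPMEPCRD (3.72) and AT1G11920 (1.68) are red. The 4 genes were selected on their ratios, so this contrast carries no weight.

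In the upper sections few of these genes differed. In 0-3 cm limma called 0 of 15, and 0 were at an unadjusted p under 0.05, against 3.47% of probes called. In 2-4 cm AT3G07010 and the polygalacturonase gene AT1G78400 (0.55 ± 0.176, adjusted p = 0.0413, limma) were called higher, 2 of 15 or 13.3%, against 13.5% of probes and 6.63% called higher. This count was 1 without 2-4 cm replicate 1 or 3 or without 3-5 cm replicate 1, and 0 without 2-4 cm replicate 2. Those fits called 7.75%, 8.33%, 12.5% and 10.6% of all probes in order. AT1G78400 was also higher in 3-5 cm (0.55 ± 0.176). ADPG1, a polygalacturonase known from pod and anther opening, was called higher in 5-7 cm (0.59 ± 0.22, adjusted p = 0.0366, limma) and lost the call in 8 of 30 alternative fits, among them those without 5-7 cm replicate 2, 3 or 4. The pectin methylesterase gene AT1G23200 was called in 5-7 cm (0.37 ± 0.146, adjusted p = 0.0483, limma), and 23 of 30 alternative fits lost that call. PMEPCRF, the other pectin methylesterase of the list, reached at most 0.39 ± 0.181 and passed in none of these comparisons. Values as high as the 3.72 of ATPMEPCRD were not found among these 15 genes, whose largest positive mean was 0.81. ATPMEPCRD was selected on its ratios, so this gap carries no weight. In the wider list described below, the polygalacturonase gene AT1G80170 reached 3.93 in 3-5 cm.

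Limma called the dye term for 5 of the 15 (33.3%) and for 8 of the 46 genes of the wider list described below (17.4%), against 16.2% of all probes and 0 of the 4 genes. The pectate lyase gene AT2G02720 had a Cy5 minus Cy3 difference of -1.94 ± 0.221 (SE; adjusted p = 1.62e-05, limma). In 3-5 cm its Cy5 arrays gave -1.40 and -1.03 and its Cy3 arrays 2.04 and 1.87, so its section means say little. On the arrays with disputed dyes it read -1.05, -1.17 and -1.47, the sign of the Cy5 arrays and the side that the source names give. The gene was chosen after its values were seen, from a fit that used these dyes, so this is no independent check of them.

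A wider list of 46 pectin loci was added after the probe names had been seen. It held 23 polygalacturonases, 8 pectin methylesterases, 7 proteins of the pectin methylesterase inhibitor family, 4 pectin acetylesterases, which remove acetyl groups, and 4 rhamnogalacturonan lyases. Limma called 18 in 3-5 cm (39.1%, 12 higher and 6 lower), 21 in 5-7 cm (45.7%, 11 and 10) and 24 in 7-9 cm (52.2%, 14 and 10), against 40.1%, 40.0% and 43.4% of all probes. Without 7-9 cm replicate 1 the last count was 15 (32.6%, against 37.0% of all probes). In 2-4 cm it called 7 (15.2%) against 13.5%, and in 0-3 cm 2 (4.35%) against 3.47%. With all arrays these shares were near or somewhat above those of all probes. In 0-3 cm the gap depended on the fit, with 26.1% of the list against 11.0% of probes after centring and scaling.

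The polygalacturonase gene AT1G80170 had the largest ratio of any gene in the wider list. It rose by 1.28 ± 0.149 in 0-3 cm, 2.31 ± 0.149 in 2-4 cm and 3.93 ± 0.149 in 3-5 cm (adjusted p = 1.14e-13, limma). The arrays stood at 3.77, 3.97, 3.91 and 4.05 in 3-5 cm, at 3.62, 3.40, 3.30 and 3.69 in 5-7 cm and at 4.02, 3.85, 3.80 and 3.99 in 7-9 cm. All 5-7 cm arrays lay below those of 3-5 cm, a difference of -0.42 ± 0.21 that missed the threshold (adjusted p = 0.27, limma). AT1G19170 rose by 2.29 ± 0.161 in 3-5 cm and by 1.30 ± 0.161 in 7-9 cm, and was lower by 0.86 on the log2 scale (-0.86 ± 0.227, adjusted p = 0.0272, limma) in 5-7 than in 3-5 cm. AT2G43860 rose to 1.75 ± 0.154 in 7-9 cm, whereas AT3G62110 fell by 2.39 ± 0.277 there. Of all 23 polygalacturonases 8 were called only higher, 6 only lower, 1 both ways and 8 in none of the 5 sections. Of all probes 29.7% were called only higher in at least 1 section, 29.4% only lower and 1.45% both ways.

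Of the 8 pectin methylesterases in the wider list, none was called higher in any section and 3 were called lower, with 5 not called, against 29.7% of all probes only higher and 29.4% only lower. By section 2, 2 and 3 of the 8 were called in 3-5, 5-7 and 7-9 cm (25.0%, 25.0% and 37.5%), below the shares of all probes. AT3G10720 fell by 1.00 ± 0.199 in 3-5 cm and by 1.29 ± 0.199 in 7-9 cm (adjusted p = 1.91e-05, limma). AT2G36710 was lower in all 5 sections, by 0.77 ± 0.133 in 0-3 cm and by 0.86 on the log2 scale (-0.86 ± 0.133) in 7-9 cm. AT2G19150 was lower in 7-9 cm (-0.72 ± 0.149). AT3G05620 was also under the reference in 5-7 and 7-9 cm, but above it on every array in 0-3 and 2-4 cm, where AT2G36710 was lower.

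Enzymes and proteins that act beside the methylesterases moved both ways. The pectin acetylesterase gene AT1G57590 rose by 2.01 ± 0.207 in 3-5 cm and was lower in 5-7 than in 3-5 cm (-1.75 ± 0.293, adjusted p = 0.00075, limma). AT1G09550 went from 1.56 ± 0.192 in 3-5 cm to -0.85 ± 0.192 in 5-7 cm, a difference of -2.41 ± 0.271 (adjusted p = 1.25e-05, limma). AT1G11920 changed sign over the same step, with a difference of -2.43. AT3G05910 fell by 1.45 ± 0.229 in 7-9 cm. In the inhibitor family AT1G14890 rose by 1.10 ± 0.147 in 3-5 cm and was at 0.96 ± 0.147 in 7-9 cm, and AT5G62350 fell by 0.96 ± 0.128 in 5-7 cm.

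**Figure D4:**
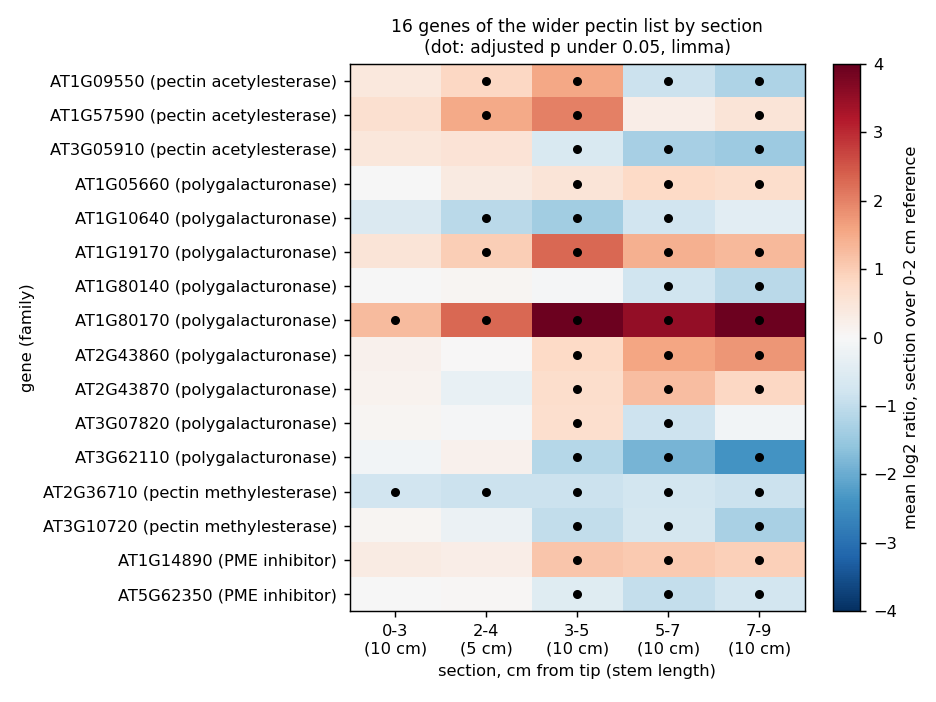
Mean log2 ratio over the 0-2 cm reference (colour, red above and blue below 0) by section (columns, cm from tip) for the 16 genes with the largest called ratios in the wider list, by family. Dots mark an adjusted p under 0.05 in limma. AT1G80170 is at 3.93, 3.50 and 3.92 in the sections from 3 cm down, and AT1G57590 and AT1G09550 are red at 3-5 cm and lower at 5-7 cm.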

How the data were processed

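RNA of stem sections was compared with a common reference on dual-colour spotted arrays, scanned with a ScanArray Express, per the labels. The deposited values are log2 ratios of section over reference, with the base assumed and the direction taken from the titles. How the authors corrected background and normalized the ratios is not stated in the sources used here. Spot intensities were not used, so distance from background is unknown and the number of arrays limits precision. On 3 arrays values were deposited in steps of 0.1.

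Of 28800 spots, 25720 were tested (measured on at least 3 of 4 arrays per section). Of 8338 annotated probes with 1 gene, 8302 matched TAIR10.1 RefSeq loci, used for names only. Families of loci without a descriptive name were assigned from general knowledge of the locus. Signal from related family members cannot be told apart, and 1 probe stood for each locus. No sequences are shown.

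limma 3.58.1 (R 4.3.3) fitted 5 section means and a dye term to all 20 arrays (14 residual degrees of freedom), with Benjamini-Hochberg adjustment over all probes and a threshold of 0.05. As a check of the code, a fit to simulated ratios recovered most of the larger known changes. The simulated noise was independent between arrays and had no dye effect, so it says little about the calls made here. The 4 genes were described by array values, means and SDs. The named genes were the 4 genes, up to 16 called genes per list with 1 sign on all 4 arrays, genes behind small counts, and the 3 most similar genes. Others named in the text, AT1G30350, AT2G02720, PMEPCRF, AT2G19150 and the marker genes, were chosen after their values were seen. Members and lists were chosen with earlier results of these data known. Alternatives were centring, scaling, array weights, other arrays, dye labels, blocks, filters and single arrays left out.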

Additional observations from a re-analysis of the deposited data

Results flagged for a closer look

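Single arrays stood apart from the other 3 of their section in 4 of 65 sets of 4 arrays, by Dixon's test at the 95% level. Chance gives about 1 in 20. For AT1G11920 it was 7-9 cm replicate 4, at -0.56. For AT1G05310 it was 5-7 cm replicate 3, at 0.25. Among other pectate lyases, AT1G67750 had -0.76 on 3-5 cm replicate 4 and AT4G24780 had -0.66 on 3-5 cm replicate 2. These arrays come from 4 different hybridisations.

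Opposite signs between sections, on every array, were found for 2 of the 4 genes, and the differences between sections were not tested. The genes were selected on these ratios, so the count carries no weight. The share of all probes with such a pattern was not computed. AT1G11920 was above the reference in 0-3, 2-4 and 3-5 cm (means 0.74, 1.27 and 1.68) and below it in 5-7 and 7-9 cm (means -0.76 and -1.41). AT3G05620 was above it in 0-3 and 2-4 cm (means 0.26 and 0.48) and below it in 5-7 and 7-9 cm (means -1.13 and -1.57).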

How the results depend on the processing

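Of 576 recomputed section values of the 4 genes, 567 moved by less than 1 SD between arrays. For each section mean, 20 of the fits left out 1 array, mostly of another section. Small moves were thus largely fixed in advance, and the count says little about robustness. Values of refitted models are adjusted for dye, so they can lie outside the arrays left when the dyes are unbalanced. Centring and scaling moved AT1G11920 to 1.65 in 2-4 cm and 1.51 in 3-5 cm, AT3G05620 to 0.62 in 2-4 cm, and ATPMEPCRD to 2.21 in 2-4 cm, 3.33 in 3-5 cm and 1.45 in 7-9 cm. Scaling divided the values of each array by their median absolute size, relative to that of all arrays. It therefore enlarged ratios on arrays where this size was small and shrank them where it was large. In 7-9 cm ATPMEPCRD was 1.47 with the dyes of the descriptions and 1.29 when 3 arrays with conflicting dye labels were dropped, an alternative chosen after seeing the data, which leaves 2 Cy3 arrays with a plain mean of 1.64. With single arrays left out the fitted value of AT1G11920 in 3-5 cm lay between 1.60 and 1.79, and the plain mean of the other 3 arrays between 1.65 and 1.72.

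Among the 15 other pectin genes, the count called in 2-4 cm was 5 with centring and scaling, 1 with no dye term or with the dyes of the descriptions, and 0 to 3 with single arrays left out. From 3-5 to 5-7 cm the count of the 15 was 1 with centring and scaling, against 2.99% of all probes. With single arrays left out it was 1 to 3. Counts in the other 6 comparisons stayed within 1.5 times in every alternative run. In the wider list the 0-3 cm count of 2 became 12 after scaling, 9 under array weights and 7 when fitted on the compared arrays alone (26.1%, 19.6% and 15.2%, against 11.0%, 7.3% and 7.72% of all probes). The 2-4 cm count of 7 became 13 after scaling and 11 under weights (28.3% and 23.9%, against 24.1% and 20.5% of all probes). From 3-5 to 5-7 cm the count of 7 (15.2%, against 5.9%) was 3 after scaling and 4 if scanner gain was a block. These shares were 6.52% and 8.7%, against 2.99% and 3.25% of all probes. The count was also 4 without 3-5 cm replicate 2 or 3 or without the 3 arrays of unclear dye. That share of 8.7% stood against 4.28%, 3.89% and 4.58% in order. Without 5-7 cm replicate 4 the count was 3 (6.52%, against 3.83%).

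Over all probes, the 892 called in 0-3 cm were 2821 after scaling and 336 without 0-3 cm replicate 2, and the 3478 called in 2-4 cm were 6200 and, without 2-4 cm replicate 1, 1994. From 3-5 to 5-7 cm 1517 became 769 after scaling and 835 if scanner gain was a block. The 4172 probes with a called dye term were 1439 with the replicate block, 1553 without the arrays of unclear dye and 9 with the dyes of the descriptions, so the background shares move with these choices too.

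With the replicate number as a block, 3 of the 15 were called in 2-4 cm and 2 from 3-5 to 5-7 cm, and the counts of the other comparisons equalled those without it. Whether arrays of the same number belong together cannot be told from the values. Deviations of same-numbered arrays from their section means correlated above 0.1 in 20 of 40 pairs (range -0.259 to 0.454). Of 20 arrays, 10 correlated best with their own number. The deviations were not adjusted for dye, which follows the replicate number in 0-3, 2-4 and 3-5 cm.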
